A study of Rattus norvegicus with 138 samples.

Results

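Serum levels of the 2 strands of miR-140 (miR-140-5p and miR-140-3p) and the 2 strands of miR-455 (miR-455-5p and miR-455-3p) were followed in rats carrying metal pellets in a leg muscle. These 4 rows were taken by name from a table of raw counts for 471 mature miRNAs, and all 4 were present. They were selected on their measured levels over time, because miR-140-3p and miR-455-3p were lower in serum after 1 mo, so every statement below on 3, 6 or 12 mo against 1 mo is a description without a test. Differences between metals played no part in that choice and were tested.

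The rats were male Sprague-Dawley rats, 3 months old at surgery, and each carried 4 pellets, 2 in each gastrocnemius muscle. Control rats had pellets of inert tantalum (Ta). The other rats had depleted uranium (DU), lead (Pb), cobalt (Co), nickel (Ni), copper (Cu), iron (Fe), tungsten (W) or aluminium (Al). Serum was drawn 1, 3, 6 or 12 mo after implantation, and the libraries form 35 groups of 4 rats, except Ta and W at 6 mo with 3 each; no Ni group at 12 mo was analysed here. Every group, Ta included, had surgery and pellets, so no group shows the serum of rats without an implant, and the labels do not say whether the same rats were sampled at several times.

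The 2 microRNAs are best known from cartilage. miR-140 lies in an intron of Wwp2 and is among the most abundant microRNAs of chondrocytes, where SOX9, the master factor of cartilage, drives it; it restrains the aggrecan-cleaving protease Adamts5 and the deacetylase Hdac4, and mice without it have short bones and early joint degeneration. miR-455 lies in an intron of Col27a1, a fibrillar collagen gene of cartilage that SOX9 also drives, and it rises during chondrocyte differentiation. A hairpin yields a 5p and a 3p strand, which have different seeds and so different targets, and serum carries microRNAs shed by many tissues and blood cells.

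The mature sequences are shown because the 2 strands of miR-140 were counted separately and at very different levels. They come from RefSeq on the rat build GRCr8, are written 5′ to 3′, and carry the seed (bases 2 to 8) in capitals.
miR-140-5p: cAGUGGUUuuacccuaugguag
miR-140-3p: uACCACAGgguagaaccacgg
miR-455-3p: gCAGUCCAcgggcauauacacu
Of the 4 strands, 3 matched an entry; miR-455-5p is given by name only. No 2 of the 3 share a seed, and 0 of the 692 other rat mature sequences in the same table carry any of the 3 seeds. The closest other mature sequence was 6 edits away for miR-140-3p and 9 edits away for miR-140-5p and miR-455-3p, so the counts of these strands have no near-identical neighbour in that table to be confused with.

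The hairpins show how the strands sit in each precursor, with the arms matched above in capitals. The miR-140 hairpin is at chr19:52375293-52375391 on the plus strand of GRCr8, inside Wwp2 and on the same strand as that gene, and it holds both arms. The miR-455 hairpin is at chr5:81704834-81704911 on the plus strand, inside Col27a1 and on the same strand as it.
miR-140 hairpin: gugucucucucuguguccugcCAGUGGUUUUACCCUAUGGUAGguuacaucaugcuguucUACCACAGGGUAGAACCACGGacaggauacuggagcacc
miR-455 hairpin: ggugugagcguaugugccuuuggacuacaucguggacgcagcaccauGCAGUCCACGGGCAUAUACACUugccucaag

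The libraries held 518 to 6406599 counts each, with a median of 685384, and 6 of them were under 20000 counts: 1 at 1 mo (Co), 4 at 3 mo (Ta, Ni, Al and DU) and 1 at 12 mo (W). Libraries of 3 mo detected the fewest miRNAs (median 99.5, against 216, 170 and 186.5 at 1, 6 and 12 mo). No count of 1 occurs in the table, and the 10th percentile of the non-zero counts of a library had a median of 13.5, 26.1, 42.9 and 5.15 counts at 1, 3, 6 and 12 mo, so a zero could stand for a molecule that was present at a low level. Levels are CPM values, each a count expressed per 1000000 counts of its TMM-scaled library, given as mean ± SD. Serum is a mixture, and fewer cells shedding a microRNA cannot be told apart here from less of it shed per cell.

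The 4 strands differed widely in abundance. miR-140-3p was a common serum miRNA, with 416066 counts in all (0.285% of the table, rank 36 of 471) and counts in all but 5 libraries. miR-455-3p held 3017 counts (rank 176) in 61 libraries. The other strands were rare: miR-455-5p had 360 counts and miR-140-5p 321 counts, each in 19 libraries. All 4 passed the low-count filter of the fit over all libraries, but only miR-140-3p passed it at 3 mo, all except miR-455-5p at 6 mo, and miR-140-3p with miR-455-3p at 12 mo.

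For miR-140 the strand balance was lopsided in every serum. Of all miR-140 counts 0.0771% were of the 5p strand (95% Wilson interval 0.0691% to 0.0860%, covering counting error only), the 3p strand was above the 5p strand in all 133 libraries with any miR-140, and the 5p strand was never found without the 3p strand. For miR-455 the 5p strand made up 10.7% of the pooled counts (9.66% to 11.7%), and 7.28, 20.5, 16.7 and 2.36% at 1, 3, 6 and 12 mo. Of its 360 counts, 90 came from 1 Cu library of 3 mo and 113 from 1 Al library of 6 mo. There the balance was not fixed: the 5p strand exceeded the 3p strand in 5 libraries, with 90 against 0 counts in Cu 3 mo replicate 2, 13 against 6 in Pb 1 mo replicate 2, 8 against 0 in W 6 mo replicate 2, and 4 against 0 in both Fe 12 mo replicate 3 and DU 12 mo replicate 4.

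The name "cartilage" could not be checked on serum beyond these strands. miR-675, a chondrocyte microRNA made from H19, was at 0 in every library for its 3p strand at 1, 3 and 12 mo and for its 5p strand at 1, 3 and 6 mo, while liver miRNAs had counts in all 4 of 4 listed members at each time. The data therefore show 4 strands by name and do not show their tissue of origin.

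miR-140-3p was highest at 1 mo and lower at each later time. Its level was 6020 ± 2565 CPM in the 36 libraries of 1 mo and 1562 ± 1465 in the 36 of 3 mo. It was 2208 ± 1347 CPM in the 34 libraries of 6 mo and 2146 ± 1204 in the 32 of 12 mo. The 5 libraries without it were all at 3 mo, in Ta, Fe, Al, Pb and DU. Those of Ta, Al and DU held under 20000 counts, and without such libraries it was found in 30 of 32 at 3 mo. It stood at a median rank of 24.5 within its library at 1 mo and of 47, 42 and 37 at 3, 6 and 12 mo.

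Within the 8 implants sampled at every time, the libraries of 1 mo did not overlap those of the same metal at 3 mo in 5 implants, at 6 mo in 6 and at 12 mo in 4. Over all miRNAs tested, every 1 mo library lay above every later library of its metal in 9.57% of cases at 3 mo and in 4.22% at both 6 and 12 mo. In Ta alone miR-140-3p averaged 7180 CPM (1 mo), 1993 CPM (3 mo), 4108 CPM (6 mo) and 851 CPM (12 mo). Its mean was thus higher at 6 mo than at 3 mo and lowest at 12 mo. Co followed the same order, with means of 6662, 1534, 2861 and 1063 CPM at 1, 3, 6 and 12 mo.

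The fitted log2 difference of miR-140-3p from 1 mo was -2.10 ± 0.31 (SE) for 3 mo, -1.54 ± 0.32 for 6 mo and -1.61 ± 0.31 for 12 mo, with equal weight for the 8 implants. The median over all 320 miRNAs tested moved by -1.62, -0.76 and -0.26. Median library totals were 1114449, 286094, 1302182 and 558752 counts at 1, 3, 6 and 12 mo, and median numbers of detected miRNAs were 216, 99.5, 170 and 186.5. The part of depth and detection in these shifts was not tested. Among the 92 miRNAs with counts in every group the medians were -0.22, -0.04 and 0.00 (log2). In that set miR-140-3p was the 6th lowest at 3 mo, the lowest at 6 mo and the 2nd lowest at 12 mo, behind miR-150-3p. Among all 320 miRNAs it ranked 129 from the lowest at 3 mo, 89 at 6 mo and 54 at 12 mo. Since miR-140-3p was selected on its levels over time, these ranks are a description only. Scaling with RLE size factors in place of TMM gave -1.48, -1.44 and -1.61 for miR-140-3p.

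**Figure D1:**
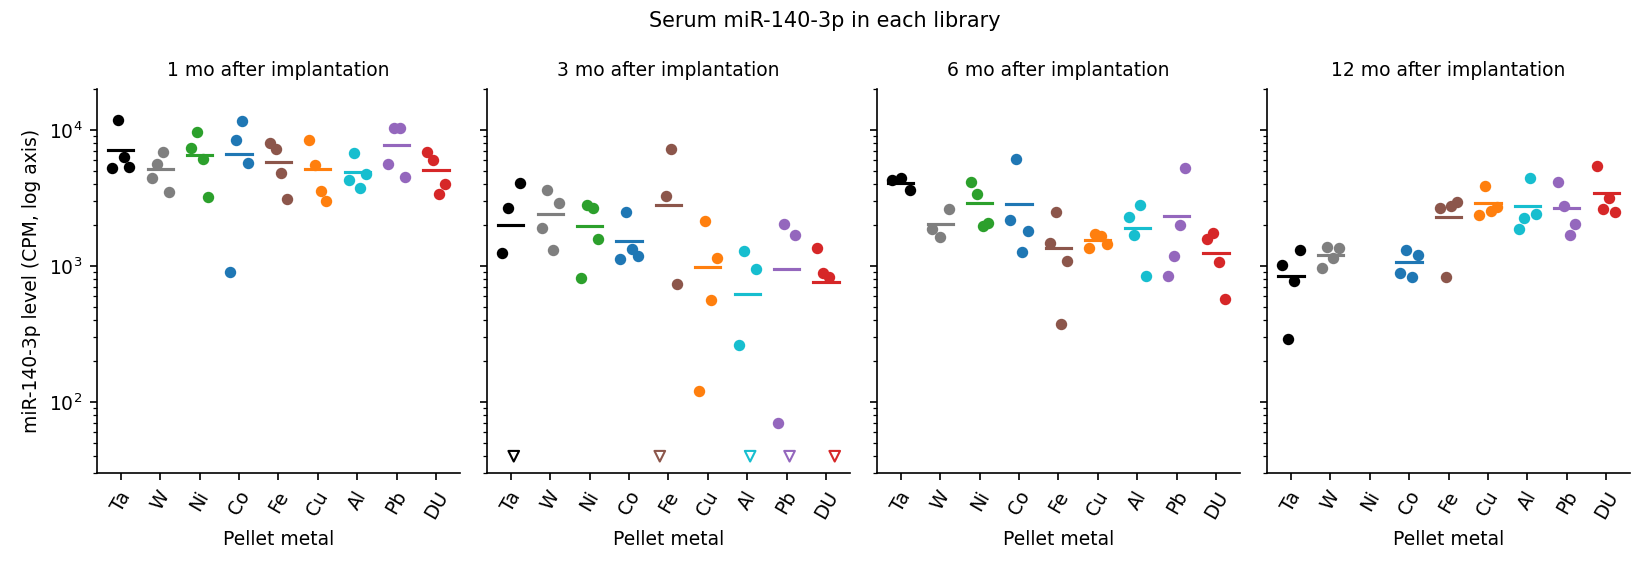
Level of miR-140-3p (CPM, log axis) in each library by pellet metal, with 1 panel per time after implantation; points are libraries, bars are group means, and open triangles at the foot mark the 5 libraries with no count. Levels are highest at 1 mo, and at 12 mo Ta, W and Co lie below Cu, Al, Pb and DU.

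miR-455-3p was found most often at 1 mo in these libraries. It had counts in 31 of the 36 libraries of 1 mo (86.1%), in 2 of the 36 of 3 mo (5.56%), in 16 of the 34 of 6 mo (47.1%) and in 12 of the 32 of 12 mo (37.5%). Its level was 50.4 ± 48.5 CPM (1 mo), 2.83 ± 15.6 CPM (3 mo), 16.4 ± 24.1 CPM (6 mo) and 16.5 ± 28.3 CPM (12 mo). At 3 mo it was found only in Ta replicate 4 (312 counts) and Al replicate 4 (37 counts), the latter the deepest 3 mo library.

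Depth differed most clearly with these detections at 3 mo. At 3 mo the 2 libraries with miR-455-3p had a median total of 3540054 counts, and the 34 without it 279442. When every library was thinned to 100000 counts, with shallower ones left out, the expected detection was 77.7%, 5.12%, 39.0% and 33.6% at 1, 3, 6 and 12 mo. The order of the times was the same after thinning. Thinning took 1 remaining count as detection, whereas the data hold no count of 1, so it does not level the detection limits of the times. The number of miRNAs detected differed too: at 6 mo its median was 194 in libraries with miR-455-3p and 142 in those without. The part of this in the detections was not tested beyond thinning.

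The rare strands did not follow one course. miR-455-5p was found in 13 of 36 libraries at 1 mo and in 1 of 36, 3 of 34 and 2 of 32 later. miR-140-5p was found in 8 of 36, 2 of 36, 3 of 34 and 6 of 32. Of the 35 groups miR-140-5p was in no library of 22 and in a single library of 8, so its values describe single sera. No Ta or W library held miR-140-5p at any time (0 of 15 each), while Co and Cu held it in 4 of 16 each.

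**Figure D2:**
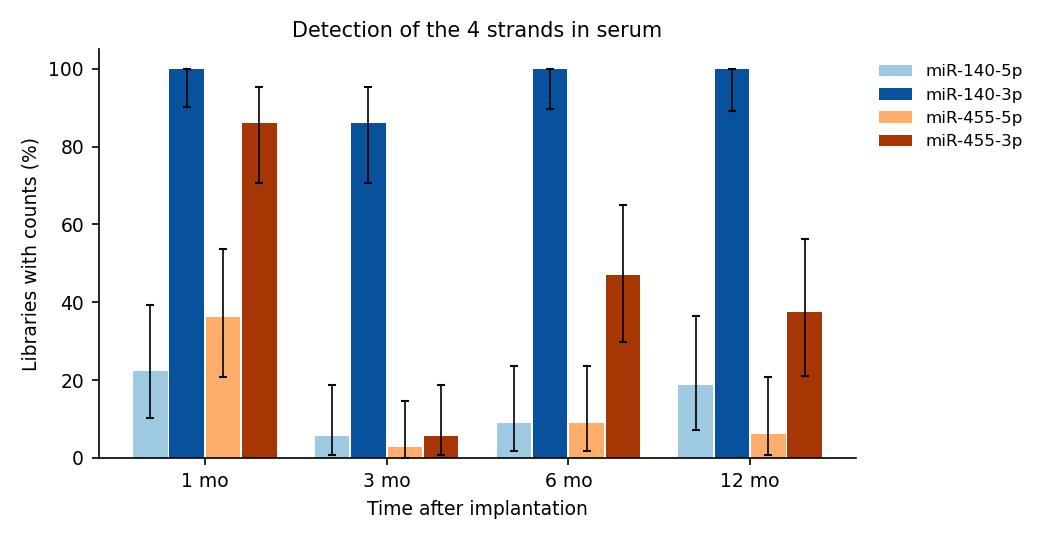
Percent of libraries with at least 1 recorded count of each strand at 1, 3, 6 and 12 mo after implantation (n = 36, 36, 34 and 32 libraries); bars are percentages and whiskers exact 95% binomial intervals, which cover counting error only. miR-140-3p is found in 86.1% to 100% of libraries, while miR-455-3p drops from 86.1% at 1 mo to 5.56% at 3 mo.

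Levels of other blood and tissue miRNAs moved between the same times. The summed level of 4 liver miRNAs had a median of 65693 CPM at 1 mo (range 17259 to 194491) and 208542 CPM at 12 mo (71867 to 436983), and that of 6 leukocyte miRNAs a median of 18332 CPM at 1 mo (8475 to 31914) and 9097 at 12 mo (4163 to 62022). The 6 platelet miRNAs summed to a median of 62531 CPM at 1 mo (5767 to 100921), 28633 at 3 mo (2633 to 117180) and 62755 at 12 mo (27698 to 121524). The 6 red cell miRNAs in the table summed to medians of 14192 CPM at 1 mo (6380.2 to 34814) and 21762 at 3 mo (0 to 743735). Their part in the course of the miR-140 and miR-455 strands was not tested.

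The design's main question was whether an embedded metal changes serum miRNAs relative to inert Ta. Across the 31 comparisons at a single time, edgeR's quasi-likelihood test called 0 of 78 tests of the 4 strands (Benjamini-Hochberg adjusted p under 0.05), against a background of 0.193% of all tests called (0.446% in W and in DU and 0 in the other metals at 12 mo). 9 of the 78 had an unadjusted p under 0.05, and DESeq2 called 5. The 78 include tests of miR-140-5p in which neither the metal nor Ta held a count, so that no call was possible. These were W, Al, Pb and DU at 1 mo and W, Ni, Fe, Al, Pb and DU at 6 mo. A test of any difference among all implants at 1 time called 0 of 10, with 4 at an unadjusted p under 0.05 and 1 called by DESeq2; the background was 0, 1.8, 1.47 and 4.02% at 1, 3, 6 and 12 mo. The closest to a call was miR-140-3p at 12 mo (adjusted p = 0.0733 by edgeR, over 224 miRNAs).

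At 12 mo the level of miR-140-3p split the implants. The 4 Ta libraries held 1021, 289, 772 and 1320.2 CPM (851 ± 436). The W libraries held 964, 1380.2, 1138 and 1365 CPM (1212 ± 199), and those of Co 895, 1321, 837 and 1199 CPM (1063 ± 234). Ta, Co and W were the 3 lowest groups and overlapped one another.

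The other metals were higher. The Cu libraries held 2359, 3900.4, 2531 and 2733 CPM (2881 ± 697), and the Al libraries 1874, 2262, 4444 and 2432 CPM (2753 ± 1151). The Pb libraries held 4157, 2776, 1703 and 2035 CPM (2668 ± 1089), and the DU libraries 5474, 2638, 3138 and 2489 CPM (3435 ± 1388). Every library of Cu, Al, Pb and DU lay above every Ta library, whereas such separation upwards from Ta occurred in 6.25, 4.02, 5.8 and 3.12% of the 224 miRNAs for these metals. In Fe, 3 libraries were as high, with 2656, 2748 and 2975 CPM, and replicate 2 was at 834 CPM, within the range of Ta. With no scaling factors Al overlapped Ta and the other 3 metals did not. From Ta to DU, each group overlapped its neighbour in the order of means (Ta, Co, W, Fe, Pb, Al, Cu, DU).

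The fitted log2 difference from Ta at 12 mo was 1.97 ± 0.54 (SE) in Pb (adjusted p = 0.0762 by edgeR), 1.72 ± 0.54 in DU (0.157), 1.67 ± 0.54 in Cu (0.200), 1.66 ± 0.54 in Al (0.174) and 1.28 ± 0.53 in Fe (0.281). W and Co each differed from Ta by 0.39 (0.53 and 0.52 SE). The median over all 224 miRNAs lay between -0.20 (DU) and 0.24 (Co) in these comparisons, a value that TMM scaling holds near 0. None of the 7 passed the threshold of the main test.

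Whether these differences were called turned on the scaling and the tool. With RLE size factors edgeR called Pb (adjusted p = 0.0408) and DU (0.0307), and DESeq2 called Fe, Cu, Al, Pb and DU (adjusted p from 0.000272 in Pb to 0.0156 in Fe). TMM scales every library to 1 reference library, here Pb 12 mo replicate 3. With Cu 12 mo replicate 2 as the reference instead, edgeR called Pb (2.07 ± 0.52, adjusted p = 0.0247) and DU (2.23 ± 0.53, 0.0145). Over each of the 32 libraries of 12 mo as reference, DU was called with 17, Pb with 5 and Cu with 4 of them, and W, Co, Fe and Al with 0. Leaving out 1 library gave a call against Ta in 13 of 32 cases, and in all 13 TMM had moved to Cu 12 mo replicate 2 as its reference. That library was the reference in 14 cases, and the 18 with another reference gave 0 calls against Ta. The left-out libraries concerned were Al replicate 2, Co replicate 3, Cu replicate 3, DU replicates 3 and 4, Fe replicates 1, 2 and 4, Pb replicates 1 and 3, Ta replicates 1 and 4 and W replicate 3. Without the last, which held 3789 counts, edgeR called Cu (0.0263), Pb (0.0118) and DU (0.00778). The direction did not turn in any of these fits: over the alternatives the log2 difference was 1.51 to 2.39 in Pb and 1.42 to 2.54 in DU.

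**Figure D3:**
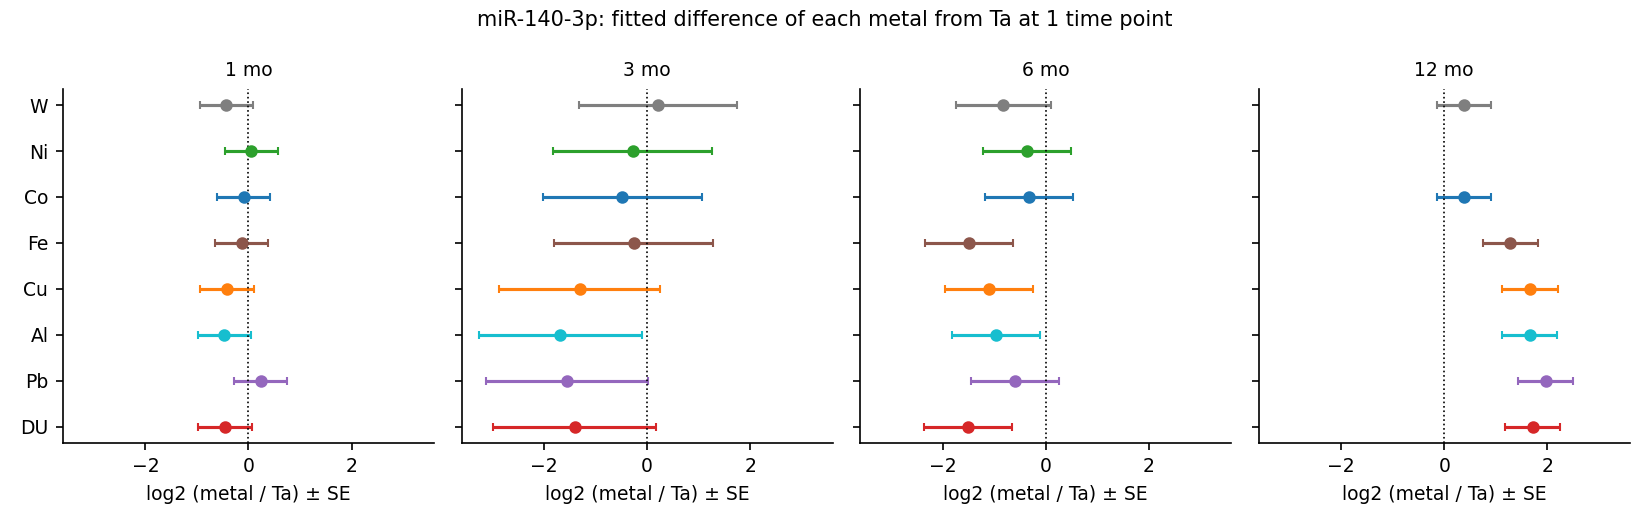
Fitted log2 difference of miR-140-3p between each metal and Ta in the separate fits at 1, 3, 6 and 12 mo; points are edgeR estimates and bars ± 1 SE, and the dotted line marks no difference. Estimates lie within 0.47 of 0 at 1 mo, below 0 for every metal at 6 mo, and above 0 for every metal at 12 mo, reaching 1.97 in Pb; none passed the threshold.

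Medians of other properties of the 12 mo libraries differed along the same split, while single libraries overlapped. The 10th percentile of the non-zero counts of a library had a median of 38.3 in Ta, 41.9 for W and 22.1 for Co, against 4 for Fe, Cu and DU, 5.15 for Al and 15 for Pb. Median totals were 617228 counts in Ta, 1364784 in W and 1165714 in Co, and between 241010 (Al) and 572062 (Pb) in the others. The 10th percentile ran from 4 to 61.5 in the Ta libraries, 12 to 70 in Co and 3 to 44 in Pb. Totals ran from 351094 to 1168200 counts in Ta and from 159861 to 1078901 in DU. Median numbers of detected miRNAs overlapped, at 158 to 191.5 in Ta, W and Co and 170.5 to 214 in the others. At 12 mo miR-140-5p had counts in 6 of the 20 libraries of Fe, Cu, Al, Pb and DU (4 to 13 counts each) and in 0 of the 12 of Ta, W and Co. It did not pass the filter at 12 mo, and Ta and W held none at any other time either. Co held miR-140-5p in 2 of 4 libraries at both 1 and 6 mo. The labels name no batch, and the part of these library properties in the result was not tested.

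Markers of other sources also differed between the 12 mo groups. The median log2 difference from Ta of the 6 platelet miRNAs was -1.06, -0.68, -0.74 and -0.74 for Cu, Al, Pb and DU, beside -0.31 for W, -0.23 for Co and -0.49 for Fe. Their summed level differed in the other direction: its median was 70691 CPM in Cu (45618 to 77687), 81789 in Al (59284 to 95933), 69377 in Pb (61731 to 88727) and 70101 in DU (47746 to 82240), against 49118 in Ta (27698 to 70401), 51750 in W (36981 to 74239), 61565 in Co (48589 to 121524) and 50789 in Fe (42248 to 61578).

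The 5 skeletal muscle miRNAs tested had median log2 differences of -2.31, -4.52, -6.01 and -3.35 for Cu, Al, Pb and DU, and of -4.39, -2.55 and -0.90 for W, Co and Fe. Their summed level had a median of 2774 CPM in Ta (792 to 24397) and of 501 (DU) to 1313 CPM (Co) in the other metals. Of the defining muscle miRNAs, miR-208b-3p was at 0 in every group except Fe, and in Pb miR-133a-3p, miR-133b-3p and miR-499-5p were at 0 too. Of these, miR-133b-3p was also at 0 in W, Al and DU, and miR-499-5p in Cu. None of these markers was called against Ta at 12 mo, and their part in the miR-140-3p result was not tested.

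At 6 mo Ta had the highest mean and DU the lowest. The 3 Ta libraries held 4311, 4411 and 3602 CPM (4108 ± 441). The DU libraries held 1584, 1758, 1079 and 576 CPM (1249 ± 533), the Fe libraries 1481, 2479, 375 and 1093 CPM (1357 ± 877) and the Cu libraries 1349, 1733, 1655 and 1445 CPM (1545 ± 179). All libraries of W, Fe, Cu, Al and DU were below all 3 Ta libraries, which occurred downwards from Ta in 9.56, 7.72, 7.72, 4.41 and 9.19% of the 272 miRNAs tested. Ni (2899 ± 1058), Co (2861 ± 2226) and Pb (2318 ± 2004) overlapped Ta, and Pb replicate 4 was above it with 5232 CPM. With RLE size factors 3 metals, and with no scaling factors 4 metals, stayed clear of Ta.

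None of the 6 mo differences was called. The largest was in DU, at -1.51 ± 0.85 (SE) with an adjusted p of 0.368 by edgeR, followed by Fe at -1.48 ± 0.85 (0.416). At 1 mo the 8 metals differed from Ta by -0.47 (Al) to 0.24 (Pb), with SEs of 0.52, and all 9 implants overlapped. At 3 mo the differences ran from -1.68 (Al) to 0.21 (W) with SEs of 1.54 to 1.58, too wide to place any metal.

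Because Ta moved from the highest mean at 6 mo to the lowest at 12 mo, the differences from Ta changed sign between these times in every metal sampled at both. The test of a difference from Ta that changes with time gave its smallest value for miR-140-3p in DU (edgeR adjusted p = 0.189) and called 0 of 32 tests of the 4 strands, 4 of which had an unadjusted p under 0.05; DESeq2 called 1, miR-140-3p in Al. Of all such tests 1.64% were called. The 32 include 8 tests of miR-140-5p, of which Ta held no count at any time, so that no call was possible. The same held for miR-455-5p in Co and Pb, where neither the metal nor Ta had a count after 1 mo. Averaged over the times, miR-140-3p differed from Ta by -0.41 (Al) to -0.02 (Fe), with SEs of 0.43 to 0.51, and no average was called. All metals share the Ta libraries, so their courses relative to Ta are not independent of one another.

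miR-455-3p was the 1 strand called against Ta, in 2 of the 8 averages over time. The averages of the 5p strands gave no usable estimate, so they show neither a difference nor its absence. Ta held no count of miR-140-5p at any time and none of miR-455-5p after 1 mo. miR-455-3p was lower in Pb (adjusted p = 0.0229 by edgeR, over 320 miRNAs) and in DU (0.0177), where 4.38 and 2.19% of all miRNAs were called lower. It had counts in 7 of 15 Ta libraries (35.6 ± 49.7 CPM), 4 of 16 Pb libraries (7.42 ± 19.5 CPM) and 5 of 16 DU libraries (8.99 ± 19.8 CPM). The fitted log2 averages were -5.28 ± 1.36 (SE) in Pb and -4.75 ± 1.21 in DU, but Pb and DU had no count at 3 and 6 mo, and the size of such a fit depends on the prior count. In the other metals the adjusted p ran from 0.122 (Fe) to 1 (Al), and DESeq2 called every metal except Al.

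Few Ta sera held miR-455-3p outside 1 and 6 mo. At 3 mo the Ta group held 0, 0, 0 and 312 counts of miR-455-3p, and at 12 mo 0, 0, 72 and 0 counts. Without Ta 3 mo replicate 4, or without Ta 12 mo replicate 3, the Ta group had no count at that time, the average could not be estimated and the adjusted p was 1 for both metals. The Pb call also ended without any 1 of Pb 1 mo replicate 1 (adjusted p = 0.0660), Pb 1 mo replicate 4 (0.0751), Pb 3 mo replicate 4 (0.0582), Pb 12 mo replicate 2 (0.0544) or Pb 12 mo replicate 4 (0.0602), and the DU call without DU 3 mo replicate 2 (0.0508) or Ta 6 mo replicate 3 (0.0510). Where these single omissions could be estimated, the log2 average stayed at -5.19 to -4.95 in Pb and at -4.75 and -4.54 in DU. There the threshold was missed with little change in size. With replicate 2 of every group left out, the average was -4.65 in Pb (adjusted p = 0.202 by edgeR) and -4.52 in DU (0.113). With replicate 3 or replicate 4 of every group left out, it could not be estimated. Without the libraries under 20000 counts the adjusted p for Pb was 0.0551 (log2 average -5.16). Both held under edgeR with RLE size factors and with no low-count filter.

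By time, Ta, Pb and DU all held miR-455-3p at 1 and 12 mo, and Ta alone of these 3 at 3 and 6 mo. At 1 mo it had 0, 100, 3 and 18 counts in Ta, 53, 6, 82 and 0 in Pb, and 15, 26, 48 and 4 in DU, so the groups overlapped. At 12 mo 1 of 4 libraries held it in each of the 3 groups, with 72 counts in Ta, 2 in Pb and 8 in DU. At 6 mo it had 0, 47 and 33 counts in Ta and 0 in all 4 libraries each of Pb, DU and Fe. Pooled over the group, Ta held 23.9 CPM without scaling factors; by counting error alone a count of 0 would allow up to 1.73 CPM in Pb, 0.246 in DU and 1.10 in Fe. With no count of 1 in the table, a zero can hide more than these limits. Ni and Co held it in 4 of 4 libraries, with 15 to 38 and 6 to 77 counts. The fits at 6 mo gave adjusted p-values of 0.222 (Pb), 0.284 (DU) and 0.382 (Fe) by edgeR.

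The 6 mo libraries of Pb, DU and Fe were also among those in which the fewest miRNAs were seen. Median numbers detected were 88.5 in Pb, 120.5 in DU and 140 in Fe, against 198 in Ta, 219 in Ni and 171 in Co. The 10th percentile of their non-zero counts had medians of 146, 259 and 36 counts, against 27.7 in Ta, 11.5 in Ni and 17 in Co. Those of Pb, DU and Fe were near or above the 47 and 33 counts by which miR-455-3p was seen in Ta. The medians of Cu (78.2) and Al (50.85) were also above that of Fe. Yet Cu libraries held miR-455-3p at 27 and 5 counts, and Al libraries at 38, 152 and 27. Of its 16 detections at 6 mo, 6 lay at or under the 10th percentile of their library, so this percentile was not a limit of detection. Markers of other sources were called in the same averages. For Pb these were miR-16-5p of the red cell list, miR-126a-5p of the platelet list and miR-122-3p of the liver list, all lower, and for DU miR-451-5p of the red cell list, lower, and miR-142-3p of the leukocyte list, higher. Over all times the summed red cell level had medians of 20519 CPM in Ta (6380.2 to 743735), 16593 in Pb (5645 to 37284) and 13727 in DU (0 to 43433), and the liver level medians of 126717 CPM (17936 to 247048), 84903 (9878 to 380523) and 76665 (17259 to 436983). The leukocyte level had medians of 12446 CPM in Ta (5276 to 92070.1), 10388 in Pb (3028 to 20833) and 12509 in DU (5316 to 27450). The summed level of 6 platelet miRNAs had medians of 51355 CPM in Ta (21938 to 117180), 47316 in Pb (13277 to 88727) and 61127 in DU (4082 to 82240). The part of these properties and markers in the miR-455-3p result was not tested.

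**Figure D4:**
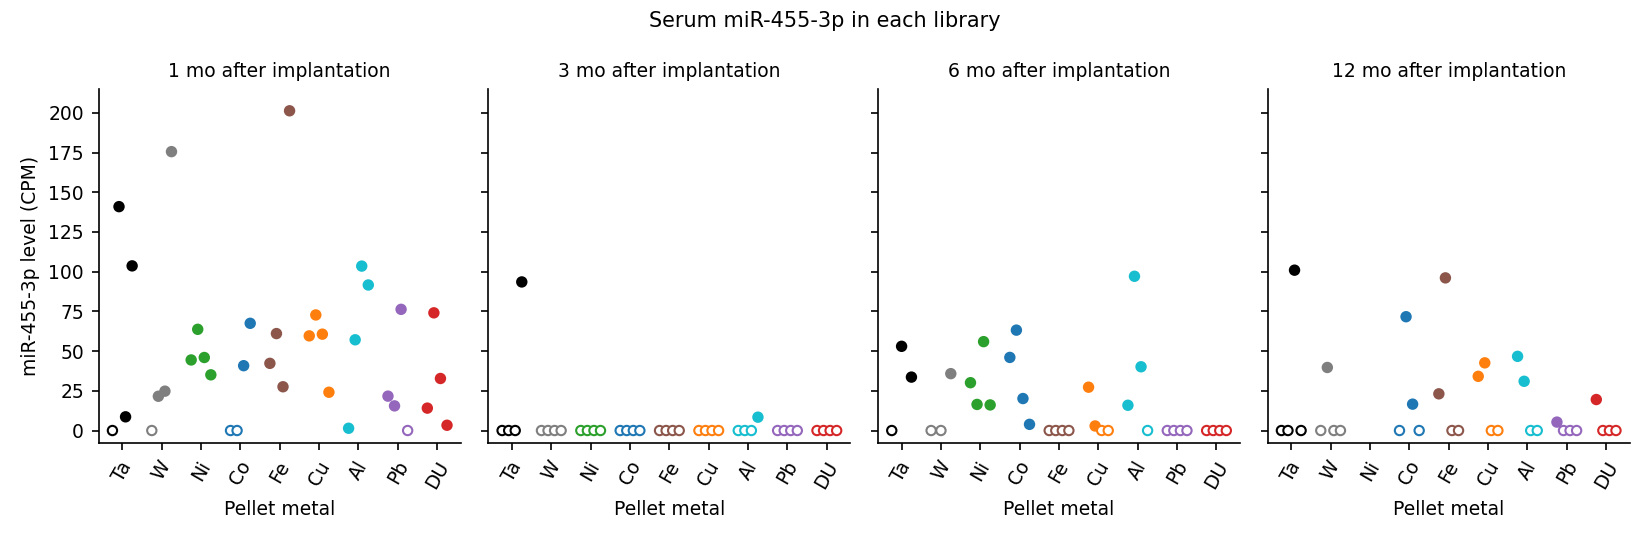
Level of miR-455-3p (CPM, linear axis) in each library by pellet metal, with 1 panel per time after implantation; filled points have counts and open points at 0 have none. At 3 mo 2 libraries hold it (Ta and Al), at 6 mo no library of Fe, Pb or DU, and at 12 mo 1 library each of Ta, W, Pb and DU.

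Across libraries of the same time, the strands moved together in 1 of 5 relations examined (pairs in which both strands had counts in at least 10 libraries). At 6 mo log2 CPM of miR-140-3p and miR-455-3p correlated with Pearson's r = 0.479 (permutation p = 0.00381, adjusted 0.0190) and Spearman's rho = 0.514 (p = 0.00220, adjusted 0.0110; n = 34). Without the 2 libraries farthest from the median of miR-140-3p, r was 0.409 (adjusted permutation p = 0.102), so the relation rests in part on those libraries. After subtracting the mean of each metal r was 0.241. Both strands also correlated with the number of miRNAs detected (r = 0.556 for miR-140-3p and 0.517 for miR-455-3p), whose part was not tested.

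In the other relations the strands did not move together beyond the threshold. For miR-140-3p with miR-455-3p r was 0.251 at 1 mo (rho = 0.105; adjusted permutation p = 0.235 and 0.700) and -0.05 at 12 mo (rho = -0.11; 0.874 and 0.700). The 2 strands of miR-455 gave r = 0.316 at 1 mo (rho = 0.302; adjusted permutation p = 0.150 and 0.184). miR-140-3p with miR-455-5p at 1 mo gave r = 0.0277 (rho = -0.03; 0.874 and 0.856).

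**Figure D5:**
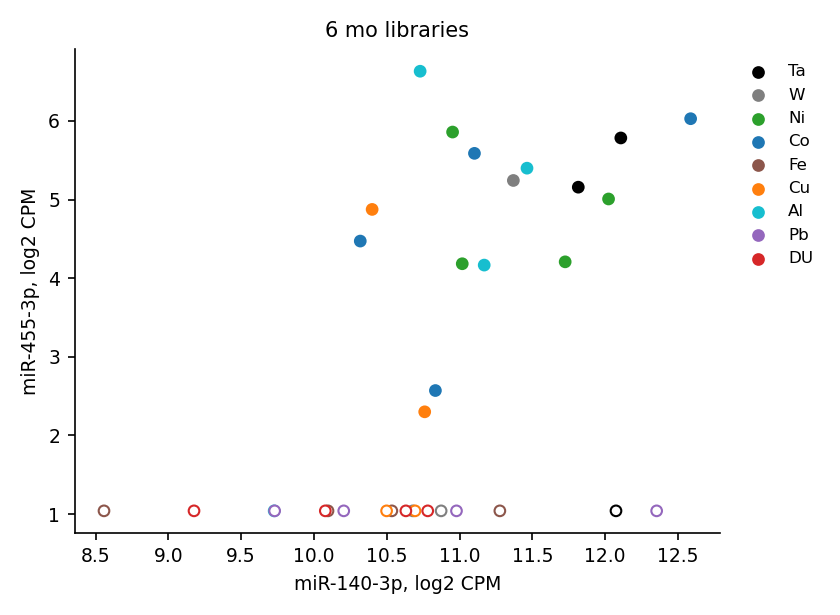
Level of miR-455-3p against that of miR-140-3p (both log2 CPM with a prior count of 2) in the 34 libraries of 6 mo, coloured by pellet metal; open points have no count of miR-455-3p. The points rise together with r = 0.479, and libraries of Pb, DU and Fe lie at the foot.

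The serum miRNAs most like miR-140-3p over all libraries, after the mean of each time was removed, were miR-378a-3p (Spearman's rho = 0.604), miR-106b-3p (0.589), miR-423-3p (0.586), miR-25-5p (0.573) and miR-150-3p (0.561). The median over 319 other miRNAs was 0.205, and libraries share depth, which all miRNAs read. Its own partner strand miR-140-5p stood at rank 77 (rho = 0.267) and miR-455-3p at rank 164 (0.201). Those most like miR-455-3p were miR-532-5p (0.474), miR-345-3p (0.423), miR-145-5p (0.416), miR-374-5p (0.410) and miR-24-2-5p (0.400), with miR-455-5p at rank 100 (0.202). For the 2 rare strands the closest were let-7b-3p with miR-140-5p (0.608, in 14 libraries) and miR-542-5p with miR-455-5p (0.488, in 13 libraries), which are likenesses of sparse counts.

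Other miRNAs with known roles in cartilage and bone gave most of their calls in the tests of change with time. Of 41 listed, 39 are in the table, and 21 to 30 were tested at each time. Over the 31 comparisons with Ta 2 of 815 tests were called (0.245%, against 0.193% of all miRNAs): miR-26a-5p lower in Co at 3 mo and miR-29b-3p, which targets collagens, lower in Pb at 6 mo. In the averages over time 1 of 256 tests was called, miR-29b-3p lower in Pb, against 1.09% of all. In the tests of a difference from Ta that changes with time 12 of 256 were called (4.69%, against 1.64% of all): miR-26a-5p in all 8 metals, miR-199a-3p in W and Ni, miR-30a-5p in Al and miR-29b-3p in Pb. The 8 metals share the Ta libraries, so the 8 calls of miR-26a-5p are not independent. The median log2 average of the list ran from -0.30 to 0.03 over the 8 metals, beside -0.29 to 0.04 for all miRNAs.

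At 12 mo the median difference of the list from Ta was -0.08 for Cu, 0.04 for Al, -0.23 for Pb and -0.60 for DU (25 miRNAs tested), beside 0.05, 0.03, 0.14 and -0.20 for all 224. In the test among all implants 1 of 29 was called at 6 mo, miR-9a-5p, against 1.47% of all miRNAs, and 3 of 25 at 12 mo, miR-30a-5p, miR-199a-3p and miR-483-5p, against 4.02%; none was called at 1 and 3 mo.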

How the data were processed

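Small RNA was sequenced from serum, and the authors deposited raw counts per mature miRNA (471 miRNAs). Per the labels' protocols, a Norgen small RNA kit and a NextSeq instrument were used; per the submitters' processing notes the build was Rnor_6.0; no aligner or counting tool is named in those sources. All columns matched a sample title.

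Models were fitted in edgeR 4.0.16 (R 4.3.3) on all miRNAs passing filterByExpr (minimum count 10, total 15), with TMM factors and 1 mean per metal and time: per time point for the 31 comparisons with Ta, and over all libraries for averages, changes with time and time descriptions. Calls needed a Benjamini-Hochberg adjusted p under 0.05. Alternatives used DESeq2 1.42.0, RLE factors, no filter, a replicate block, thinning, other TMM reference libraries and omitted libraries. Correlations used 100000 permutations, two-sided. Samples were treated as separate rats, and p-values measure the spread between these samples. Counts are not independent molecules. Scripts were tested on simulated data. The members, lists and rules were chosen with earlier results of these data known; the 4 strands are always named, with the 5 most alike miRNAs and listed miRNAs that were called. Sequences and host genes are RefSeq's on GRCr8.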

Additional observations from a re-analysis of the deposited data

Results flagged for a closer look

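In 35 groups of 4 libraries in which a strand had counts in every library, 3 held a library far from the other 3 by Dixon's criterion (95%), which chance gives in about 1 in 20 groups. All were of miR-140-3p. Ta 1 mo replicate 2 held 11799 CPM and the others 5281 to 6290.3 CPM. Co 3 mo replicate 2 held 2498 CPM and the others 1126 to 1325 CPM. Fe 12 mo replicate 2 held 834 CPM and the others 2656 to 2975 CPM.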

How the results depend on the processing

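Calls against Ta at 1 time numbered 2 with RLE size factors, 5 with DESeq2 3 without the libraries under 20000 counts and 2 with Cu 12 mo replicate 2 as the TMM reference (an alternative chosen after seeing the data), against 0 in the main test; calls among the implants numbered 1 under each of these settings and 3 with no low-count filter (sparse strands at 3 mo). Calls averaged over times numbered 7 with DESeq2 and 1 without the libraries under 20000 counts, against 2, and calls changing with time 1 with DESeq2, against 0. Leaving out libraries gave 0 to 3, 0 to 1, 0 to 2 and 0 to 0 of these calls in turn. The replicate block left the counts at 0, 0, 2 and 0; replicate numbers did not pair the samples (median r of same-numbered libraries 0.00156, and 39 libraries correlated best with their own number).

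In Ta alone miR-140-3p was at 4108 CPM at 6 mo and 851 at 12 mo, and miR-455-3p at 23.4 CPM at 3 mo, with detection of 25% at 3 mo and 66.7% at 6 mo; miR-140-5p at every time, and miR-455-5p at 3, 6 and 12 mo, were in 0% of Ta libraries. Leaving out replicates of every group gave 0 to 3.70% of 3 mo libraries with miR-455-5p and 0 to 7.41% with miR-455-3p. Thinning put miR-140-3p in 96.7% of 3 mo libraries. Without the 2 farthest libraries r of miR-140-3p was 0.409 with miR-455-3p at 6 mo (weaker), -0.00546 at 1 mo and, with miR-455-5p, -0.0222; the last was -0.0609 without the libraries under 20000 counts.

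Average differences of miR-140-3p from Ta near 0 changed sign: in W 0.183 (RLE) and 0.0994 (DESeq2); in Pb 0.0359 (RLE), 0.0251 (no filter), 0.0206 (DESeq2) and 0.0476 (without the libraries under 20000 counts). Leaving out libraries moved this average over -0.450 to 0.0948 (W), -0.360 to 0.0861 (Ni), -0.361 to 0.139 (Co), -0.438 to 0.295 (Fe), -0.389 to 0.00728 (Cu), -0.258 to 0.319 (Pb) and -0.670 to 0.0646 (DU), that of miR-455-3p in Al over -1.10 to 1.32, and miR-140-3p in Co at 6 mo over -1.05 to 0.00703. The cause was not tested. A zero of the 3 rarer strands, or of miR-140-3p in the shallowest libraries of 3 mo, may be a low level. The part of depth in these zeros was not tested.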
